A study of Homo sapiens with 12 samples.

Results

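MOLM-13 cells grown in medium conditioned by bone marrow stromal cells were compared with the same cells in regular medium, with no FLT3 inhibitor in either arm. The comparison used 6 of the 12 RNA-seq libraries of the study, 3 from cells in hBMSC-CM with vehicle and 3 from cells in RPMI with vehicle, and the 12998 of 57353 gene names in the count table whose mean count and mean CPM (counts scaled to library size) were at least 1 over all 12 libraries. MOLM-13 is a human acute myeloid leukemia (AML) line that carries an internal tandem duplication of the receptor kinase FLT3 (FLT3-ITD). RPMI here was RPMI with fetal bovine serum, and hBMSC-CM was an equal mixture of that medium with filtered medium taken from HS-5 cells, an immortalized line of human marrow stroma. Vehicle was DMSO, and cells were exposed for 15 hr. The other 6 libraries held cells in the same media with 3 nM quizartinib, a FLT3 inhibitor, and are used here to repeat the comparison of the media in cells that the vehicle groups do not contain. They also entered the filter on low genes and the estimate of spread behind the vehicle tests, and a fit on the vehicle libraries alone called 4168 genes, 3981 of them among the 4174 reported below. Each medium was tested on a single AML line with a single stromal line as the source, and p-values measure the spread between these libraries. The study describes its replicates as biological, while the labels do not say whether they came from separate cultures. In bulk libraries, a change in every cell and a change in the share of cells that carry an RNA cannot be told apart.

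Marrow stromal cells release cytokines, growth factors and lipids that act on hematopoietic cells through their surface receptors. Receptors of the interleukin-6 and gp130 family, and those of the interleukin-3 and GM-CSF family, activate JAK kinases. The JAK kinases phosphorylate STAT transcription factors, which switch on kinases of the PIM family and the CISH and SOCS feedback inhibitors. FLT3-ITD itself signals to STAT5, ERK and PI3K without ligand, so that AML cells of this kind carry such activity before any stromal factor is added. The comparison asked which transcripts conditioned medium changes when FLT3 is left active.

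Total counts were 30347953, 26181522 and 22287982 in the RPMI vehicle libraries and 31546104, 20938043 and 21890648 in the hBMSC-CM vehicle libraries, and at this depth a count of 0 allows a level of up to 0.0951 to 0.143 CPM (3 counts, counting error only). Between the libraries of one group, counts varied more than sampling alone gives, with a chi-square of 2.66 to 10.5 per gene for the 6 pairs of vehicle libraries, so no library was counted as a copy of another. All 12 AML markers checked were found in every vehicle library, among them PTPRC, CD33, SPI1, HOXA9 and MEIS1, and between the media 3 of them were called higher and 3 lower. Of 34 genes of stromal cells, 12 had no count in any vehicle library, including the defining markers COL3A1, THY1, LUM, DCN, POSTN and CXCL12, and COL1A1 had 3 to 7 counts per library. The stromal genes that were tested (6) summed to 92.4, 92.7 and 97.3 CPM in RPMI and 94.3, 86.0 and 92.9 CPM in hBMSC-CM. IGFBP7, which gave the largest share of that sum, lay at 43.2 ± 1.99 CPM in RPMI and 42.6 ± 3.97 CPM in hBMSC-CM (SD, n = 3 each). Of these 6, ENG was called higher (log2 fold change 0.22 ± 0.083, SE), although its groups overlapped and the call was lost with library size alone (adjusted p = 0.0713) and without the first hBMSC-CM library (0.319), while TPM2 and ACTA2 were called lower. The summed level of stromal transcripts thus overlapped between the media.

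Conditioned medium changed many transcripts by a small amount and a short list of them by a large one. At an adjusted p under 0.05 in the quasi-likelihood test of edgeR (two-sided, Benjamini-Hochberg adjusted), used throughout, 4174 genes differed between the media, 32.1% of all genes tested. Of these, 2162 were higher in hBMSC-CM (16.6% of genes tested) and 2012 were lower (15.5%). The median size of a called change was 0.28 on the log2 scale, and 181 called genes (1.39%) changed at least 2-fold, 99 of them higher (0.762%) and 82 lower (0.631%). Over all genes tested the median change was -0.00246 on the log2 scale, and 5803 genes (44.6%) had no overlap between the 3 libraries of each medium. The division of calls between the directions depended on the scaling, with 51.8% of called genes higher under TMM scaling, 45.7% with library size alone and 42.1% with upper-quartile factors. Counts of genes in the text are therefore read beside these background shares, and levels are CPM after TMM scaling, which are not divided by transcript length and are compared only within a gene.

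**Figure D1:**
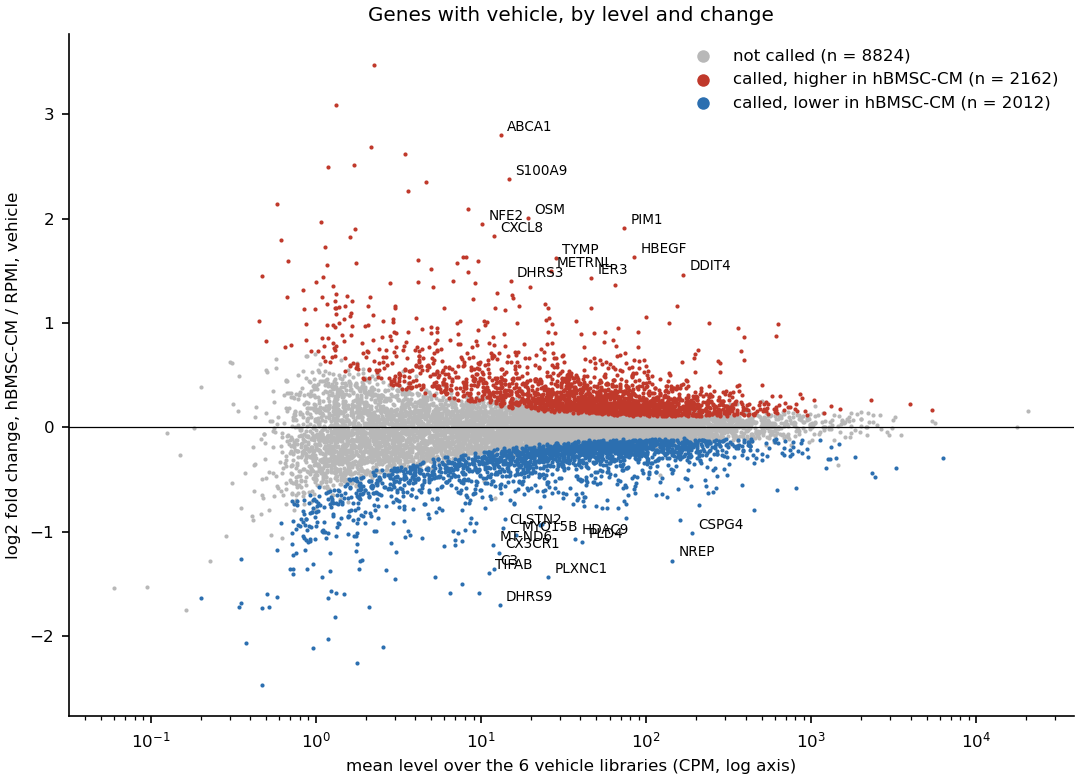
Each point is one of 12998 genes, with its mean level over the 6 vehicle libraries on the horizontal axis (CPM, log scale) and the log2 fold change of hBMSC-CM over RPMI on the vertical axis. Red points are the 2162 genes called higher, blue points the 2012 called lower, and the labelled genes are the 12 largest changes in each direction at a mean of at least 10 CPM, from ABCA1 at 2.80 to DHRS9 at -1.70.

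Above an average of 10 CPM, the 12 largest increases were of ABCA1, S100A9, OSM, NFE2, PIM1, CXCL8, HBEGF, TYMP, METRNL, DDIT4, IER3 and DHRS3. ABCA1 (9:104781006-104928155 of GRCh38), the transporter that carries cholesterol out of cells, was at 2.84, 4.11 and 3.04 CPM in RPMI and 24.6, 22.4 and 22.4 CPM in hBMSC-CM. The lowest conditioned-medium library was thus more than 5 times the highest RPMI library, and the log2 fold change was 2.80 ± 0.102 (SE, adjusted p = 3.08e-14). S100A9, a calcium-binding protein of neutrophils and monocytes, lay at 4.68, 5.52 and 4.01 CPM in RPMI and at 22.4, 25.3 and 27.0 CPM in hBMSC-CM, a log2 fold change of 2.38 ± 0.099. NFE2, a transcription factor of the megakaryocyte and erythroid lineages, rose from 4.17 ± 0.184 to 16.1 ± 1.23 CPM (SD, n = 3). TYMP, which encodes thymidine phosphorylase, went from 14.6, 13.7 and 13.7 to 42.2, 43.1 and 43.9 CPM, and DHRS3, a reductase that turns retinal into retinol, from 8.30 ± 0.351 to 22.0 ± 0.520 CPM. In none of the 12 did the groups overlap, which the rule for naming them required.

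Several of these genes encode ligands. OSM (22:30262829-30266851) encodes oncostatin M, a cytokine of the interleukin-6 family, and was found at 7.80, 7.63 and 7.56 CPM in RPMI and 32.5, 30.4 and 29.5 CPM in hBMSC-CM (log2 fold change 2.01 ± 0.087). HBEGF, a ligand of the EGF receptor, was found at 41.2, 42.3 and 39.6 CPM in RPMI and 125, 127 and 130 CPM in hBMSC-CM (1.63 ± 0.051). For both genes, the 3 libraries of a medium lay close together beside the gap between the media. CXCL8, the neutrophil chemokine interleukin-8, rose from 5.22 ± 0.686 to 18.7 ± 3.06 CPM, and METRNL, a secreted protein, from 13.8 ± 0.853 to 39.0 ± 0.974 CPM. IL1B, which encodes interleukin-1 beta, rose from 4.79 ± 0.354 to 14.5 ± 0.913 CPM. Of 25 chemokines, cytokines and growth factors tested, 9 were higher and 4 were lower, and those that fell included PDGFA, a ligand of the PDGF receptors, from 68.0 ± 1.04 to 40.0 ± 1.63 CPM, and IL16, a T cell chemoattractant, from 48.0 ± 2.18 to 33.8 ± 0.594 CPM.

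Genes that JAK-STAT signaling is known to induce, or that feed back on it, had the largest median of all the lists examined. Of 32 tested, 23 were higher in hBMSC-CM (71.9%, against 16.6% of all genes), 1 was lower and 8 were not called, and the median log2 fold change was 0.54. PIM1 (6:37170152-37175428), a serine/threonine kinase that promotes survival, lay at 30.1, 33.1 and 29.3 CPM in RPMI and 112, 117 and 119 CPM in hBMSC-CM (log2 fold change 1.91 ± 0.060, adjusted p = 3.53e-15). Its relatives moved less, PIM2 by 0.87 ± 0.080 and PIM3 by 0.64 ± 0.070. SOCS3 (17:78356778-78360077), an inhibitor of gp130 receptors and JAK kinases, was at 2.97, 3.79 and 2.72 CPM in RPMI and 13.1, 12.4 and 15.3 CPM in hBMSC-CM, a log2 fold change of 2.10 ± 0.131. CISH (3:50606489-50611774), a feedback inhibitor induced by STAT5, was at 46.0, 44.5 and 48.7 CPM in RPMI and 94.8, 94.0 and 79.4 CPM in hBMSC-CM (0.95 ± 0.066). The third hBMSC-CM library was the lowest for CISH and the highest for SOCS3, and neither gene's groups overlapped. SOCS1 was close to the limit of the table, at 0.950 ± 0.252 CPM in RPMI and 2.01 ± 0.442 CPM in hBMSC-CM.

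Some known STAT targets were not called. SOCS2 lay at 131, 147 and 136 CPM in RPMI and 134, 129 and 145 CPM in hBMSC-CM, and the log2 fold change of -0.02 ± 0.049 was within the spread of the libraries. BCL2L1, which encodes the survival protein BCL-XL, lay at 16.7 ± 0.489 and 16.5 ± 0.542 CPM, and MCL1, another survival protein, at 291 ± 3.10 and 301 ± 4.04 CPM (adjusted p = 0.358). BCL6, a transcriptional repressor that STAT5 is known to lower, was the 1 gene of the list that fell, from 10.8, 11.3 and 11.3 CPM to 8.87, 7.56 and 8.59 CPM (-0.41 ± 0.084). Other members that rose were JUNB, CEBPB, CEBPD, ID1 and ICAM1, with log2 fold changes of 0.69, 0.79, 0.90, 1.00 and 1.18.

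**Figure D2:**
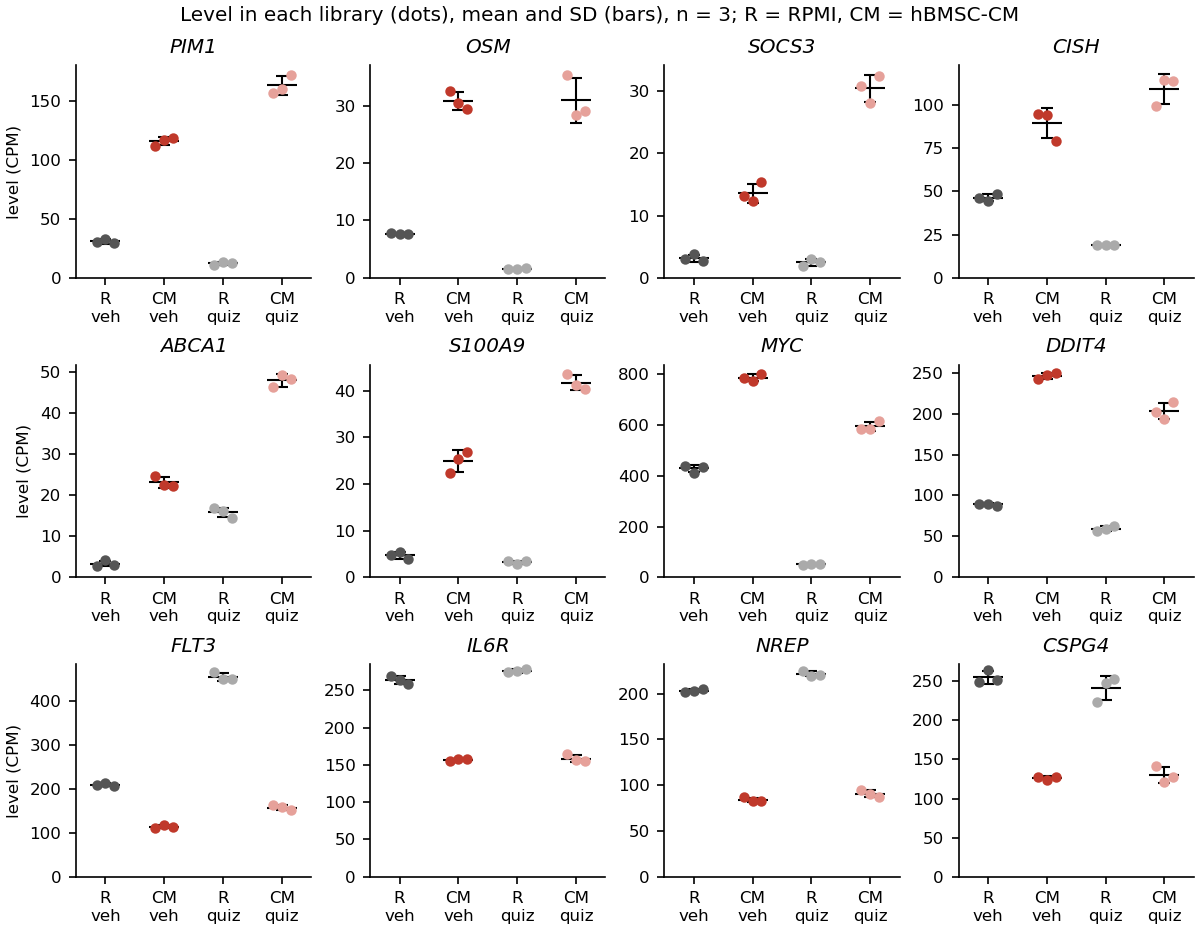
Levels of 12 genes in each library (dots, CPM, axes from 0), with the mean and SD of 3 replicates as bars, for RPMI (R) and hBMSC-CM (CM) with vehicle (veh) and with 3 nM quizartinib (quiz). PIM1, OSM, SOCS3, CISH, ABCA1, S100A9, MYC and DDIT4 are higher in hBMSC-CM with either treatment, and FLT3, IL6R, NREP and CSPG4 are lower.

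The promoters of CISH, which rose, and BCL6, which fell, are shown because both hold several copies of the letters TTCNNNGAA that STAT proteins are known to bind. Capitals mark each match in the 300 bases from 250 before to 50 after the first start that the RefSeq promoter table (GRCh38.p14) lists for the gene, read 5′ to 3′ on its own strand. The CISH window (chr3:50611725-50612024, minus strand) held 4 matches, whose first bases lie 241, 230, 129 and 112 bases before the start. The BCL6 window (chr3:187745419-187745718, minus strand) also held 4 matches, the first 2 of which begin 28 and 5 bases before the start, with no overlap between matches in either gene. Matches were sought on both strands, and 7.66% of the 35116 windows in the table held at least 1. Of the 32 tested genes of the list only 24 (75.0%) had a window, so a share over the list is void, and 5 of these 24 held a match, 3 of them among the 18 called higher, so that most members with a window had none.
CISH: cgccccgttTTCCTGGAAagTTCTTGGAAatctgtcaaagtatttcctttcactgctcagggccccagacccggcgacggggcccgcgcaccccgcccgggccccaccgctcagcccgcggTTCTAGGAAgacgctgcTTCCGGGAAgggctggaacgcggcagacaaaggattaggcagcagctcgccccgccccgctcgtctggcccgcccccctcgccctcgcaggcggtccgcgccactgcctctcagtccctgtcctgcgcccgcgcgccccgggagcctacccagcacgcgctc
BCL6: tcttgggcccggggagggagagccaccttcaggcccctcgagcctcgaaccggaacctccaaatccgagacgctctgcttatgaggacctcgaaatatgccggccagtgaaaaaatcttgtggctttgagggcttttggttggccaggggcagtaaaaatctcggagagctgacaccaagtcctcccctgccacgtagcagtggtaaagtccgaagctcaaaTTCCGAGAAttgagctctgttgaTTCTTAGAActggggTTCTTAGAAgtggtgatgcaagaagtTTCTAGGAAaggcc

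Upstream of these targets, receptors and kinases moved in both directions. FLT3 (13:28003274-28100592), the mutated receptor of this line, was at 208, 213 and 206 CPM in RPMI and 110, 117 and 113 CPM in hBMSC-CM, a log2 fold change of -0.89 ± 0.042. IL6R (1:154405193-154469450), the ligand-binding chain of the interleukin-6 receptor, was at 269, 263 and 258 CPM in RPMI and 156, 158 and 158 CPM in hBMSC-CM (-0.75 ± 0.039). Both fell with a spread of a few CPM between replicates. IL6ST, which encodes the shared gp130 chain, rose by 0.33 ± 0.065, CSF2RB, the shared beta chain of the interleukin-3 and GM-CSF receptors, by 0.20 ± 0.054, and IL10RA by 0.52 ± 0.065. IL7R showed the largest rise of the receptors tested, from 3.59 ± 0.404 to 10.8 ± 0.965 CPM. Over the 36 cytokine and growth factor receptors tested, 13 were higher (36.1%, against 16.6% of all genes) and 6 lower (16.7%, against 15.5%). Their median of 0.02 turned negative with upper-quartile scaling (-0.00713). Of the 10 JAK and STAT genes, JAK3 rose by 0.67 ± 0.077 and STAT3 by 0.23 ± 0.047, while JAK2 fell from 57.2 ± 1.33 to 40.7 ± 1.72 CPM and TYK2 from 226 ± 4.84 to 190 ± 6.09 CPM.

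Feedback genes and targets of ERK rose more often than they fell, with 15 of 29 higher (51.7%), 3 lower and a median of 0.20. IER3, an early-response gene, was at 25.7, 24.8 and 24.9 CPM in RPMI and 68.8, 66.1 and 68.8 CPM in hBMSC-CM, and EGR1, an early-response transcription factor, rose from 10.5 ± 1.77 to 23.3 ± 3.55 CPM. The members that fell included 2 phosphatases that inactivate ERK kinases, DUSP6 by 0.17 ± 0.049 (adjusted p = 0.00959) and DUSP7 from 62.6 ± 3.11 to 37.0 ± 1.93 CPM. Of the other phosphatases of this family in the list, DUSP1 and DUSP4, named after their values were seen, rose by 0.57 ± 0.129 and 0.58 ± 0.093. When the second hBMSC-CM vehicle library was left out, the DUSP6 call was lost (-0.145, adjusted p = 0.0601) and 1 gene of the list was lower.

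Of 35 NF-kB targets tested, 12 were higher (34.3%, against 16.6% of all genes), 6 were lower (17.1%, against 15.5%) and the median of -0.02 was positive without the first RPMI library (0.00152). Of the increases, 6 were of at least 2-fold, among them those of CXCL8 (1.83 ± 0.123) and IL1B, whose levels are given above. Of the decreases, 1 was of at least 2-fold (-1.27), of a gene averaging under 5 CPM. TNFAIP3, the A20 inhibitor of the pathway, fell from 101, 103 and 106 CPM to 75.0, 70.6 and 68.9 CPM, and MAP3K8 fell from 8.67 ± 0.988 to 6.04 ± 0.919 CPM. NFKBIA, which encodes the inhibitor IkB alpha, lay at 56.2 ± 1.26 and 55.5 ± 0.908 CPM. The NF-kB motif was found in the promoter window of 10 of the 30 list genes that had one (33.3%). It was found in 12.9% of the tested genes with a window and in 11.3% of all windows. Only 71.3% of genes tested had a window, so the share of 12.9% is incomplete, and a match does not show binding. Interferon-stimulated genes, another read-out of STAT proteins, gave 8 higher (17.0%, close to the 16.6% of all genes) and 12 lower (25.5%, against 15.5%) of 47. Their median of -0.0124 was positive without the third library of either medium, at 0.0242 for hBMSC-CM and 0.0112 for RPMI. PLSCR1 was up by 0.91 ± 0.063 and USP18 and OAS1 were each down by 0.47. Of 20 TGF-beta and BMP target genes, 5 rose and 5 fell, and 3 rose without the first RPMI library. Their median of -0.00616 was positive without that library (0.0227) and without the second (0.0189) or the third (0.0219) hBMSC-CM library.

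Transcripts of granule and monocyte proteins were called higher more often than lower. Of 32 monocyte and macrophage genes, 19 were higher (59.4%) and 7 lower (21.9%), with a median of 0.34, and of 13 neutrophil granule genes 8 were higher, none was lower and the median was 0.45. PRTN3, the granule protease proteinase 3, was at 93.1, 93.5 and 101 CPM in RPMI and 218, 204 and 219 CPM in hBMSC-CM (1.16 ± 0.066). LYZ, which encodes lysozyme, was at 273, 293 and 260 CPM in RPMI and 481, 517 and 512 CPM in hBMSC-CM (0.87 ± 0.051). CST7, a cystatin of granules, rose from 4.35 ± 0.505 to 12.2 ± 0.235 CPM. CD38, a surface enzyme of maturing leukocytes, rose from 7.25 ± 0.414 to 17.7 ± 0.790 CPM. Of 29 myeloid and stem cell transcription factors, 12 were higher (41.4%, against 16.6% of all genes) and 6 lower (20.7%, against 15.5%). Among them LMO2 and RUNX2 fell by 0.44 ± 0.048 and 0.52 ± 0.111.

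Among genes of 1 to 10 CPM, the chemotactic receptor FPR1, which senses formylated bacterial peptides, had the largest increase. It lay at 0.445, 0.352 and 0.277 CPM in RPMI and 4.16, 4.11 and 4.08 CPM in hBMSC-CM (3.48 ± 0.249). S100A8, the partner of S100A9, went from 0.499 ± 0.114 to 2.92 ± 0.361 CPM. STON1, ANKRD22 and SEMA6B, with log2 fold changes of 3.09, 2.69 and 2.62, completed the 5 largest increases in this range. The 5 largest decreases were of COL15A1 (-2.26), a collagen of basement membranes, MGAT3 (-2.10), which adds the bisecting sugar to N-glycans, HECW1 (-2.03), MFAP4 (-1.82) and CSPG4P13 (-1.72). CSPG4P13 is a pseudogene related to CSPG4, which fell too, and how reads were divided between such copies is uncertain.

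Of the 7 monocyte and macrophage genes that fell, FCER1G, the shared signaling chain of Fc receptors, had a log2 fold change of -0.46 (from 17.3 to 12.5 CPM, means of 3) and FCGR1A one of -0.34, a call lost in some settings. The other decreases of that list included 2 of at least 2-fold, both under 1 CPM in either medium and named after their values were seen, MSR1, a scavenger receptor (-1.72 ± 0.326), and ADAMDEC1, a protease of macrophages (-1.36 ± 0.322). The largest decreases above 10 CPM lay outside that list and included CX3CR1, the fractalkine receptor of monocytes, and C3, the central complement protein. CX3CR1 was at 16.8, 19.3 and 17.8 CPM in RPMI and 8.41, 8.91 and 5.93 CPM in hBMSC-CM (-1.20 ± 0.099), and C3 was at 19.1, 16.6 and 16.4 CPM in RPMI and 7.45, 6.91 and 5.88 CPM in hBMSC-CM (-1.36 ± 0.091). The largest decrease above 10 CPM was of DHRS9 (2:169064789-169096167), a retinol dehydrogenase, from 20.7, 20.7 and 18.2 CPM to 5.84, 6.31 and 6.26 CPM (-1.70 ± 0.092). PLXNC1, a semaphorin receptor, fell from 37.4 ± 1.58 to 13.8 ± 0.543 CPM, TIFAB from 16.2 ± 0.387 to 6.16 ± 0.154 CPM, PLD4, an exonuclease of phagocytes, from 56.0 ± 3.29 to 26.1 ± 0.490 CPM and HDAC9, a histone deacetylase, from 50.4 ± 1.18 to 24.0 ± 0.941 CPM. NREP (5:111662621-111997464) had the smallest SE of the 12 largest decreases and went from 202, 203 and 205 CPM to 86.7, 82.4 and 82.3 CPM (-1.28 ± 0.042). CSPG4 (15:75674322-75712848), the NG2 proteoglycan of leukemic blasts, fell from 249, 265 and 251 CPM to 127, 124 and 128 CPM, close to 2-fold. Antisense and overlapping genes at these places cannot be separated, since it is not stated whether counting used strand.

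Of 24 adhesion and integrin genes, 11 were higher (45.8%, against 16.6% of all genes) and 3 lower (12.5%, against 15.5%). ICAM1 lay at 14.8, 14.1 and 15.8 CPM in RPMI and 35.2, 33.2 and 32.7 CPM in hBMSC-CM, and PECAM1 (CD31) rose from 91.5 ± 8.09 to 183 ± 9.23 CPM. ITGAL, the alpha chain of the integrin LFA-1 that binds ICAM1, lay at 569, 568 and 573 CPM in RPMI and 343, 323 and 324 CPM in hBMSC-CM (-0.79 ± 0.041). A ligand and its receptor chain thus moved in opposite directions. HLA class II genes gave 5 higher and none lower of 13. The largest of these increases, at 1.45, was of a gene averaging under 5 CPM. HLA-DRA lay at 6.49 ± 0.605 and 11.1 ± 0.390 CPM and HLA-DRB1 at 3.90 ± 0.104 and 6.45 ± 0.497 CPM, genes whose reads may be divided among near-identical copies. HLA class I and antigen processing genes gave 8 higher (36.4%) and 1 lower (4.55%) of 22.

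MYC, the transcription factor that drives growth and ribosome production, was at 440, 413 and 435 CPM in RPMI and 787, 775 and 800 CPM in hBMSC-CM, a log2 fold change of 0.87 ± 0.045 (adjusted p = 7.4e-12). MXD1, a repressor that competes for the same partner, rose as well, from 17.7 ± 0.400 to 33.4 ± 1.17 CPM, whereas MXD4 fell from 36.3 ± 1.37 to 27.5 ± 0.370 CPM. In all, 5 of 10 genes of the MYC network were higher and 2 lower, the latter count being 1 to 3 when single libraries were left out (1 without the second hBMSC-CM vehicle, the first or the third RPMI vehicle, or the second or the third RPMI quizartinib library). Of 116 genes of ribosome biogenesis and RNA polymerase I, 71 were called higher (61.2%), 1 was lower and 44 were not called, with a median of 0.17. The called increases were small and ran from 0.11 to 0.40. NOLC1, a nucleolar chaperone, lay at 331, 294 and 316 CPM in RPMI and 424, 457 and 365 CPM in hBMSC-CM, and WDR3, a part of the small-subunit processome, at 156, 159 and 152 CPM and 196, 218 and 201 CPM. TAF1B, a factor that recruits RNA polymerase I, was the 1 gene that fell, from 32.8 ± 0.581 to 25.7 ± 0.655 CPM. Over other scalings, 58 to 72 members were called higher.

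Promoters of that list were searched for the E-box CACGTG, the sequence that MYC and related factors are known to bind, which reads the same on both strands. It occurred in the window of 34 of the 98 members that had one (34.7%), beside 10.7% of the 9265 tested genes with a window (71.3% of genes tested, so that this share is incomplete) and 7.26% of all 35116 windows, and in 14.3% beside 6.34% of all windows when only the bases before the start were read, a description that does not show binding. The 2 windows shown belong to called members with a match, a choice made after their values were seen. UTP18, a processome protein (chr17:51260296-51260595, plus strand), rose from 66.3 ± 1.04 to 86.2 ± 4.19 CPM, and its window holds 2 matches, the first of which begins 89 bases before the start. MYBBP1A, a nucleolar protein (chr17:4555335-4555634, minus strand), rose from 221 ± 5.56 to 273 ± 4.62 CPM, and its window holds 1 match, behind the start. Capitals mark the matches.
UTP18: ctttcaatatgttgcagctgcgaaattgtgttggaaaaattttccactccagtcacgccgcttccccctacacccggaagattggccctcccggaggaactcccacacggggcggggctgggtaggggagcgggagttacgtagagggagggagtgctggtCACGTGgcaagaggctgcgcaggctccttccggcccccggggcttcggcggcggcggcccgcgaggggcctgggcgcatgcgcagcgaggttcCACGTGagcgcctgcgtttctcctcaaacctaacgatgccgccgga
MYBBP1A: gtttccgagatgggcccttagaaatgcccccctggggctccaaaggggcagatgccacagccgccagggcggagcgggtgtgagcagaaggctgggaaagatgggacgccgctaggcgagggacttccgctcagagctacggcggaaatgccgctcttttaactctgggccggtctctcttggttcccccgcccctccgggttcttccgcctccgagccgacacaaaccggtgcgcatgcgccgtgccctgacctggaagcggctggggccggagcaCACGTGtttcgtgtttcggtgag

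Many genes of amino acid supply and of protein folding were called higher. Of 48 amino acid transporters and ATF4 target genes, 31 were higher (64.6%), 3 lower and the median was 0.17. DDIT4 (10:72273919-72276036), an inhibitor of mTORC1 that stress and hypoxia induce, was the largest of them, at 90.1, 90.1 and 87.3 CPM in RPMI and 242, 247 and 250 CPM in hBMSC-CM (1.46 ± 0.046, adjusted p = 3.53e-15). SLC7A11, the cystine transporter, rose from 48.2 ± 1.10 to 82.6 ± 1.29 CPM, while PHGDH, the first enzyme of serine synthesis, and ATF5 fell by 0.23 ± 0.060 and 0.33 ± 0.084. In the unfolded protein response, 21 of 31 genes were higher (67.7%) and 1 was lower, with a median of 0.21. XBP1, its splicing-activated transcription factor, lay at 160, 158 and 161 CPM in RPMI and 313, 321 and 325 CPM in hBMSC-CM (1.00 ± 0.039). HSPA5, the chaperone BiP, varied far more between replicates, at 339, 245 and 325 CPM in RPMI and 490, 585 and 350 CPM in hBMSC-CM (0.65 ± 0.139), so that its highest RPMI library was just under its lowest hBMSC-CM library. Heat shock protein genes gave 18 higher and none lower of 28, with HSPA4L up by 0.39 ± 0.082 and HSPA1B, which has a near-identical copy, by 0.34 ± 0.068.

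Genes of lipid and sugar metabolism were among those called higher. Besides ABCA1, SREBF1, the transcription factor of lipid synthesis, was at 34.8, 32.7 and 34.1 CPM in RPMI and 67.9, 56.9 and 64.4 CPM in hBMSC-CM (0.90 ± 0.062). Both are known targets of the oxysterol receptor LXR, of whose 15 tested targets 9 were higher and 2 lower, with a median of 0.39. SCD, the desaturase that makes monounsaturated fatty acids, was at 283, 284 and 283 CPM in RPMI and 486, 487 and 438 CPM in hBMSC-CM, and 13 of 21 fatty acid synthesis genes were higher and 2 lower. Cholesterol synthesis and uptake genes gave 11 higher and 1 lower of 32, with SREBF1 the largest increase, followed among named genes by DHCR7, the last enzyme of cholesterol synthesis, from 31.0 ± 2.00 to 53.1 ± 1.93 CPM. Of 27 glycolysis genes, 15 were higher (55.6%), 1 was lower (0 to 1 with single libraries left out) and 11 were not called. The increases included the glucose transporters SLC2A1, from 50.9 ± 2.64 to 81.6 ± 0.971 CPM, and SLC2A3, from a mean of 75.8 CPM to 118 ± 0.861 CPM. Hypoxia targets gave 18 higher and 2 lower of 34, with BHLHE40 up by 1.04 ± 0.080. Fatty acid oxidation genes gave 3 higher (13.6%) and 4 lower (18.2%) of 22, near the 16.6% and 15.5% of all genes. The 4 became 2 without the third hBMSC-CM, the first RPMI or the third RPMI library and 6 without the first hBMSC-CM library. The 2 lower calls of the LXR list and of the fatty acid synthesis list each became 1 without certain single vehicle libraries. With 1 library left out, the lower calls ran from 1 to 2 in the cholesterol list and from 1 to 3 in the LXR list.

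Mitochondrial transcripts differed by genome. All 13 mitochondrially encoded protein genes were called lower in hBMSC-CM, with a median log2 fold change of -0.58 and a range of -1.13 to -0.44. The share of all counts on mitochondrially encoded genes was 0.683%, 0.706% and 0.790% in RPMI and 0.613%, 0.462% and 0.458% in hBMSC-CM, a difference of means of -0.215 percentage points (exact permutation test, two-sided, p = 0.1, the smallest that 3 against 3 libraries allow). The groups did not overlap, but the first hBMSC-CM library lay closer to RPMI than the rest. Poly-A selection and RNA quality can move such a share, and their part was not tested. Of the 78 nuclear-encoded respiratory chain genes, 13 were higher (16.7%, close to the 16.6% of all genes) and 2 lower, with a median of 0.04. That count of 13 fell to 4 without the third hBMSC-CM library, to 7 without the second RPMI library, to 4 without the third RPMI library and to 7 with upper-quartile scaling. Its members changed little, with UQCR11 up by 0.48 ± 0.077 and NDUFB1 down by 0.26 ± 0.069.

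Regulators of mTOR gave 8 higher (16.3%, close to the 16.6% of all genes) and 13 lower (26.5%, against 15.5%) of 49. MTOR itself lay at 249, 238 and 252 CPM in RPMI and 263, 244 and 242 CPM in hBMSC-CM, a log2 fold change of 0.02 ± 0.043 (adjusted p = 0.772), whose sign was negative in some settings. The kinase ATM was at 176, 191 and 188 CPM in RPMI and 174, 169 and 163 CPM in hBMSC-CM (-0.13 ± 0.048, adjusted p = 0.0368), a call lost without the second or the third library of either medium (adjusted p = 0.0932 to 0.140). The changes in neither gene approached those of the stress-induced inhibitors SESN1 and SESN3, which fell from 69.1 ± 2.37 to 49.7 ± 0.0940 CPM and from 19.7 ± 0.226 to 11.8 ± 0.320 CPM. EIF4EBP1, a translation repressor that mTORC1 phosphorylates, rose from 120 ± 3.47 to 152 ± 8.09 CPM, and PIK3R5, a regulatory subunit of PI3K gamma, from 84.7 ± 0.242 to 114 ± 3.34 CPM.

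Many mitosis genes were called lower, by small amounts. Of 61 tested, 39 were called lower (63.9%, against 15.5% of all genes), 22 were not called and the median was -0.18. Other scalings gave 38 to 51 lower, leaving out single libraries 34 to 44, and an adjusted p under 0.01 gave 30. Called decreases ran from -0.364 to -0.125. NEK2, a centrosomal kinase, lay at 65.4, 63.8 and 62.9 CPM in RPMI and 47.6, 51.6 and 50.4 CPM in hBMSC-CM, and FOXM1, the transcription factor of the G2/M genes, at 122, 113 and 124 CPM and 98.9, 98.7 and 85.8 CPM. Of 63 genes of the G1/S step and DNA replication, 9 were higher (14.3%) and 13 lower (20.6%), with a median of -0.03, and other scalings gave 6 to 9 higher and 13 to 18 lower. CCND2, which encodes cyclin D2, was the largest of these, at 212, 212 and 217 CPM in RPMI and 345, 335 and 314 CPM in hBMSC-CM (0.63 ± 0.042), while E2F7 and E2F8, repressors of the cell cycle, fell by 0.32 ± 0.052 and 0.36 ± 0.076. The list of CDK inhibitors and p53 targets gave 15 lower (53.6%) and none higher of 28, with a median of -0.16. TP53INP1 fell from 16.1 ± 0.734 to 10.4 ± 0.210 CPM and the antiproliferative gene BTG2 from 25.1 ± 0.496 to 17.2 ± 0.352 CPM. In the fit as reported, the called members of this list and of the mitosis list were all lower. Not called were 13 of 28 and 22 of 61.

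Of 16 genes of the BCL2 family, 2 were higher (12.5%), 3 lower (18.8%) and 11 not called. Both shares were near those of all genes (16.6% and 15.5%). The 2 that rose, named after their values were seen, were BCL2A1, a survival protein (0.74 ± 0.126), and HRK, a BH3-only protein under 1 CPM (0.83 ± 0.311, adjusted p = 0.0481). The count of 2 became 1 with library size alone, with upper-quartile factors and without certain single libraries of each of the 4 groups. Over all alternatives it ran from 0 to 3. BMF, a pro-apoptotic BH3-only protein, was at 51.9, 55.4 and 51.8 CPM in RPMI and 32.1, 34.2 and 28.1 CPM in hBMSC-CM (-0.75 ± 0.059). BCL2, a survival protein, was at 216, 227 and 225 CPM in RPMI and 157, 153 and 143 CPM in hBMSC-CM (-0.56 ± 0.045). A promoter and an inhibitor of apoptosis thus fell together, and as given above MCL1 and BCL2L1 were not called.

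**Figure D3:**
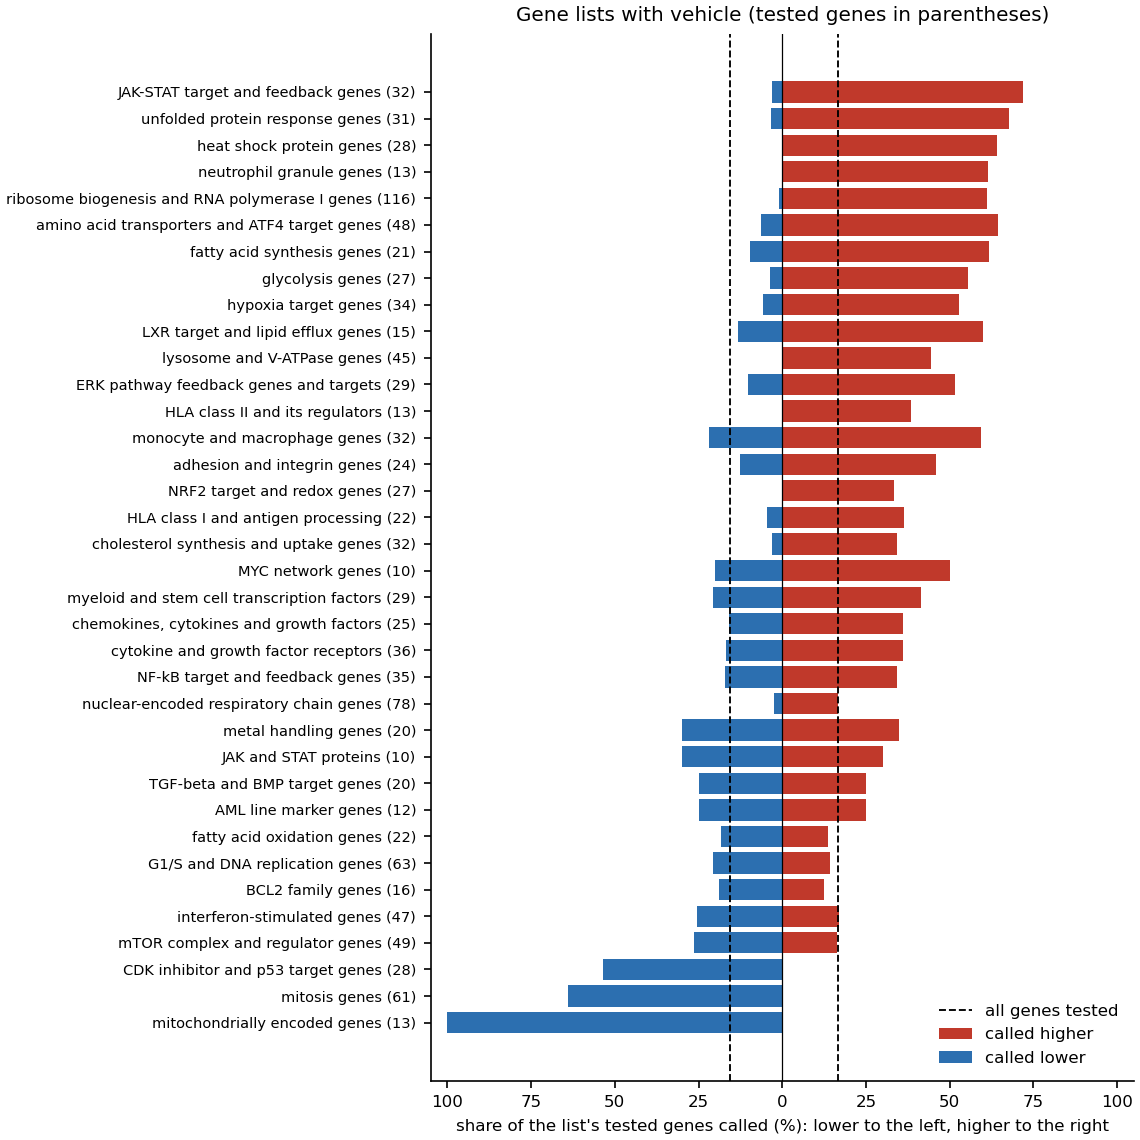
For each of 36 gene lists with at least 10 tested genes (number in parentheses), the bar to the right is the percent of tested genes called higher in hBMSC-CM with vehicle and the bar to the left the percent called lower, with dashed lines at the 16.6% and 15.5% of all genes tested. The JAK-STAT list reaches 71.9% higher, mitochondrially encoded genes 100% lower and mitosis genes 63.9% lower.

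Of the remaining lists, lysosome and V-ATPase genes gave 20 higher and none lower of 45, but 12 higher and 2 lower without the third RPMI library and 5 lower with upper-quartile scaling, and included CTSL, a lysosomal protease, at 33.0 ± 0.624 and 52.1 ± 3.12 CPM. NRF2 target and redox genes gave 9 higher and none lower of 27, and up to 2 lower in other settings. Metal handling genes divided, with 7 higher (35.0%) and 6 lower (30.0%) of 20. The largest of these increases, at 1.96, was of a gene averaging under 5 CPM. The zinc and iron importers SLC39A14 and SLC39A8 rose by 0.50 ± 0.052 and 0.32 ± 0.051, and the metallothioneins MT1G and MT1E fell by 0.58 ± 0.076 and 0.49 ± 0.051. The metallothioneins have near-identical copies, and their values are uncertain for that reason.

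The comparison was repeated in the 6 libraries with quizartinib, which share no library with the vehicle comparison. There the media differed in 9076 genes (69.8% of genes tested, 35.5% higher and 34.3% lower). Of the 2162 genes higher with vehicle, 1783 (82.5%) were called higher with quizartinib, 106 (4.90%) were called lower and 273 were not called. Of the 2012 genes lower with vehicle, 1524 (75.7%) were called lower and 155 (7.70%) higher. Among genes changed at least 2-fold with vehicle, 93 of the 99 increases and 77 of the 82 decreases (93.9% of each) were called in the same direction.

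Size was less alike than direction. The interaction of medium and drug was called for 5881 of all genes tested (45.2%) and for 2320 of those called with vehicle. The median log2 fold change of the genes higher with vehicle was 0.27 with vehicle and 0.56 with quizartinib, and that of the genes lower with vehicle was -0.29 and -0.41. MYC illustrates this, since its level in RPMI was 429 ± 14.7 CPM with vehicle and 50.5 ± 2.85 CPM with quizartinib, beside 787 ± 12.6 and 595 ± 18.5 CPM in hBMSC-CM, and the interaction was 2.68 on the log2 scale (adjusted p = 8.58e-17). The interaction was called for 10 of the 12 largest increases above 10 CPM and for 6 of the 12 largest decreases. It was not called for NREP (-1.28 with vehicle and -1.29 with quizartinib), PLXNC1 (-1.43 and -1.29) or DHRS9 (-1.70 and -1.45), which does not show that these effects were equal. Among the lists, G1/S and DNA replication genes gave 9 higher and 13 lower of 63 with vehicle. With quizartinib they gave 56 higher and 3 lower, and the interaction was called for 55 of the 63. Some lists that were one-sided with vehicle were less so or not at all with quizartinib. There, lysosome and V-ATPase genes gave 16 higher and 18 lower. HLA class I and antigen processing genes gave 7 higher and 9 lower, and NRF2 target and redox genes 9 and 9. Of the mitochondrially encoded genes, 2 were higher and 6 lower. Other lists kept their direction, such as JAK-STAT targets (26 higher and 2 lower) and mitosis genes (4 higher and 46 lower). DUSP6 and TNFAIP3 were lower in hBMSC-CM with vehicle and higher with quizartinib (1.72 and 1.11), with interactions of 1.90 and 1.63.

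**Figure D4:**
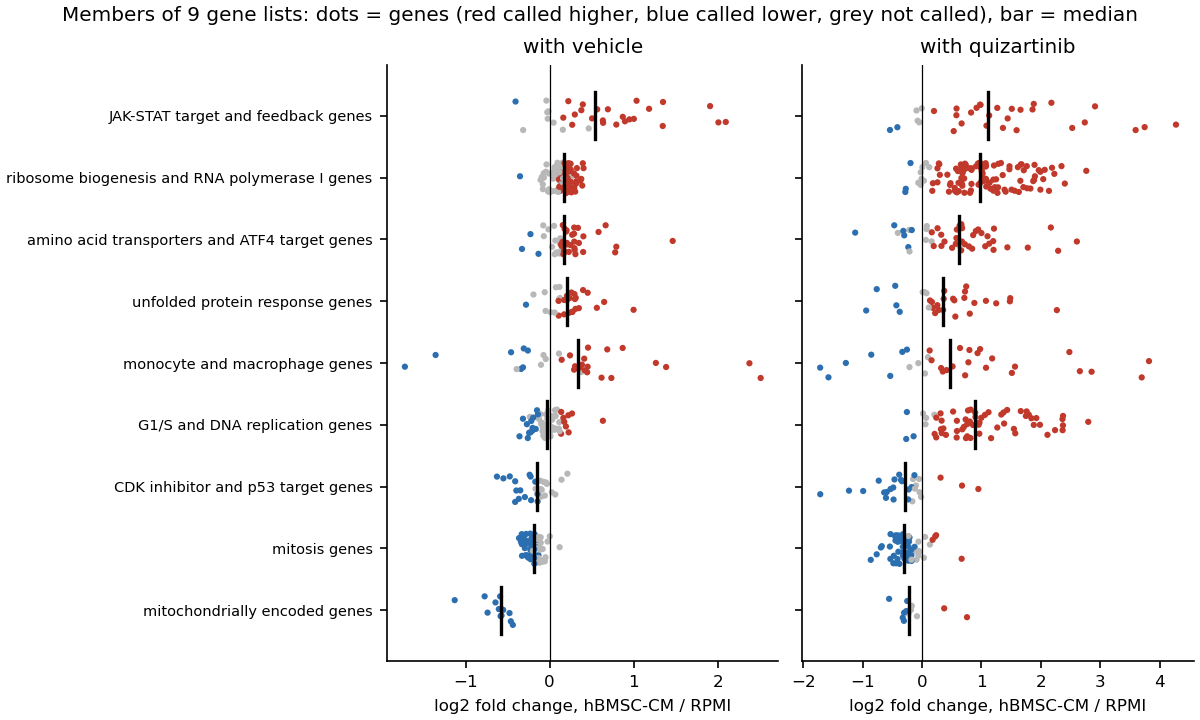
Log2 fold change of hBMSC-CM over RPMI for the members of 9 gene lists (one dot per gene, red called higher, blue called lower, grey not called, black bar the median), with vehicle on the left and with quizartinib on the right, each panel with its own scale. Medians run from 0.54 for JAK-STAT targets to -0.58 for mitochondrially encoded genes with vehicle, and that of G1/S genes is -0.03 with vehicle and 0.89 with quizartinib.

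**Figure D5:**
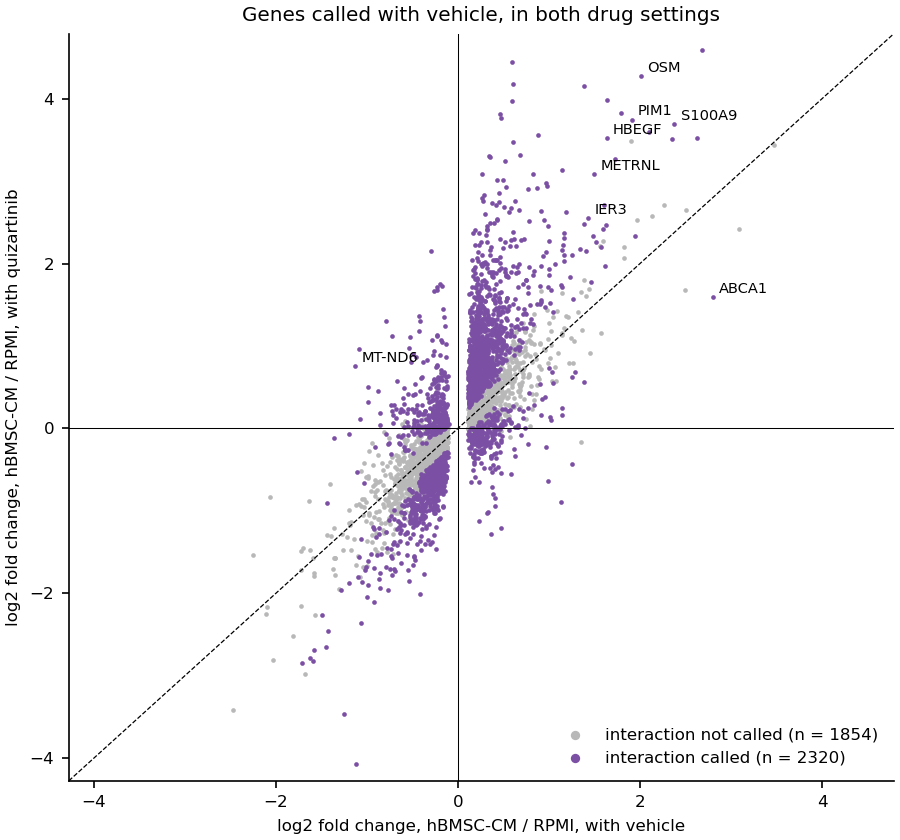
The 4174 genes called with vehicle, placed by the log2 fold change of hBMSC-CM over RPMI with vehicle (horizontal) and with quizartinib (vertical), where the dashed line marks equal values. Purple points are the 2320 genes with a called interaction, and labels mark those of the 24 largest changes above 10 CPM whose interaction is called and at least 1 on the log2 scale, such as OSM at 2.01 and 4.27.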

How the data were processed

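RNA-seq libraries of MOLM-13 cells were assigned to 4 groups of 3 replicates from the sample labels. Per the authors, adapters were trimmed with BBDuk, short reads removed, and reads aligned to GRCh38 (hg38) and counted per gene with STAR 2.6.0a, and counts of IDs that share a name were summed. The authors deposited raw counts per gene name, without normalization. The strand setting of the counting was not given in the sources used here. No column lacked a sample.

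Genes with a mean count and mean CPM of at least 1 over 12 libraries (12998) were scaled by TMM and tested with edgeR 4.0.16 (glmQLFit, glmQLFTest, two-sided) in 1 model of 4 group means, with Benjamini-Hochberg adjustment over all genes tested and a threshold of 0.05. The authors used limma, which was run here as an alternative, since edgeR models the deposited counts directly. Coordinates came from GENCODE 44 by gene name (11588 genes, 89.2%). Scripts were tested on simulated data. Lists (37, from general knowledge), members and tests were chosen with earlier results of these data known. Lists were described by counts and medians, without a test.

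Named genes were the 12 largest non-overlapping called changes per direction averaging 10 CPM or more, the 5 largest at 1 to 10 CPM, up to 2 per list and direction averaging 5 CPM or more, and 19 signaling genes whatever their value, of which the text gives most. UTP18, MYBBP1A, DUSP1, DUSP4, MSR1, ADAMDEC1, BCL2A1, HRK and markers counted for identity lie outside that rule. Vehicle samples with the same replicate number across media showed no sign of deviating together, so the numbers were not used as a block, although so few pairs cannot show that the samples were unpaired. Alternatives were other scalings, DESeq2 1.42.0, limma-voom and limma-trend (limma 3.58.1), other filters and thresholds, a fit on vehicle libraries only, the block, and each library left out in turn.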

Additional observations from a re-analysis of the deposited data

Results flagged for a closer look

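For 8 of the 24 genes with the largest changes above 10 CPM, the effect of the medium differed with the drug by at least 1 on the log2 scale, by the interaction term of edgeR's quasi-likelihood model. Differences are the change with quizartinib less that with vehicle. OSM rose by 2.01 with vehicle and 4.27 with quizartinib, a difference of 2.27 ± 0.160 (SE, adjusted p = 2.67e-10). HBEGF and PIM1 had differences of 1.89 ± 0.0801 and 1.84 ± 0.0911, with rises of 3.52 and 3.75 with quizartinib. METRNL, S100A9 and IER3 also rose by more with quizartinib, by 1.58 ± 0.112, 1.32 ± 0.156 and 1.12 ± 0.0895. ABCA1 went the other way, with a rise of 2.80 with vehicle and 1.6 with quizartinib (-1.21 ± 0.132). MT-ND6, the 1 complex I gene encoded on the light strand of mitochondrial DNA, fell by 1.13 with vehicle and was higher by 0.76 with quizartinib, a difference of 1.89 ± 0.291, and reads from the opposite strand cannot be told apart from its own, since strand use is not stated.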

How the results depend on the processing

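Of the 155 named genes, 149 were called and none of these changed direction under any of the alternatives, and no gene called both in the fit as reported and in an alternative changed sign. With the threshold at an adjusted p of 0.01, 2692 genes were called, 1231 of them lower, and 2204 were called the same way with quizartinib. The count of genes changed at least 2-fold was 362 with no filter on low counts and 75 at a mean of at least 5 CPM, as more or fewer low genes were tested. Leaving out 1 library gave 3278 to 4338 calls (1780 to 2335 higher, 1498 to 2097 lower), 173 to 193 genes of at least 2-fold, 51.6% to 54.6% of calls higher, 2676 to 3336 genes called the same way with quizartinib, 5406 to 5899 interactions, and a difference in the mitochondrial share of -0.267 to -0.184 points.

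Of the 6 named genes that were not called, 5 had signs that turned. MTOR was -0.00834 with upper-quartile factors. Leaving out 1 library gave -0.0198 to 0.0415 for MTOR, -0.0924 to 0.0365 for IGFBP7, -0.07 to 0.0263 for SOCS2, -0.0337 to 0.0171 for BCL2L1 and -0.0326 to 0.00319 for NFKBIA. Called genes that lost significance in some settings were 12, among them ATM, ENG, CCND1, MXD3, CD36 and SDHC.

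With the replicate number as a block, 3953 genes were called. Same-numbered vehicle libraries of the 2 media had correlations of -0.263 to 0.0521, and other-numbered ones of -0.329 to 0.379. No sign of pairing was seen, but 3 same-numbered pairs cannot show that the samples were unpaired. The E-box share of ribosome biogenesis genes was 14.3% when only the 250 bases before the start were read, beside 6.34% of all windows. The cause of these changes was not tested otherwise. With 3 libraries a group, changes of low genes are the least precise.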

Other observations

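Of 493 tested genes that the annotation classes as long non-coding RNA, 24 were higher (4.87%) and 94 were lower (19.1%), with a median log2 fold change of -0.135, beside 1978 higher (18.8%) and 1678 lower of 10498 protein-coding genes with a median of 0.00597. Over the other scalings of the libraries, 23 to 25 long non-coding RNAs were called higher and 93 to 109 lower. The 80 transcribed unprocessed pseudogenes gave none higher and 20 lower, and the 334 processed pseudogenes 16 higher and 9 lower, with reads that cannot be separated from those of parent genes. The 1410 tested names with no match in the annotation gave 127 higher (9.01%) and 195 lower (13.8%). They include clone-based names whose class was not assigned, so the counts of long non-coding RNA cover matched names only.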
